A study of Mus musculus with 14 samples.

Results

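The genes described here are 9 receptors of the tumour necrosis factor (TNF) receptor family and Icos, a costimulatory receptor of the CD28 family, in cultured mouse Th2 cells. They were taken by symbol from the deposited gene tables: Tnfrsf4, Tnfrsf8, Tnfrsf9, Tnfrsf18, Tnfrsf1a, Tnfrsf1b, Tnfrsf25, Tnfrsf14, Cd27 and Icos, 10 of 22598 genes. All 10 passed the filter on low counts, as did 11591 genes in all. RNA was sequenced in 14 libraries of 4 groups: Ago1, Ago3 and Ago4 combined knockout at day 14 (3 libraries), wild type of that day (3 libraries), knockout at day 7 (4 libraries) and wild type of that day (4 libraries). The knockout carries the genotype label Ago134, and all groups carry the strain label C57BL/6J. Every culture began from naive CD4 T cells sorted from spleen, which were activated and driven towards the Th2 type. The series text speaks of littermates and names day 15 in one place where the sample labels say day 14. The labels name no allele. Nothing in them tells if replicate libraries stem from different mice or cultures, so a p-value here covers the spread among libraries only, and that spread may be technical.

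Costimulatory receptors give a T cell signals beyond that of its antigen receptor. Receptors of the TNF family bind trimeric ligands, recruit TRAF adaptor proteins and switch on NF-kB and kinase pathways that promote survival, division and cytokine output. Some, such as Cd27 and Tnfrsf25, are present on resting T cells, and others, such as Tnfrsf4 (OX40), Tnfrsf9 and Tnfrsf8 (CD30), appear after activation. ICOS signals instead through phosphatidylinositol 3-kinase and is known for its part in helper T cell cytokine responses.

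Values are CPM, reads scaled to a common library total, and group values are mean ± SD. Fold changes are log2 ± SE from the edgeR quasi-likelihood test, with p-values adjusted over all 11591 tested genes by the Benjamini-Hochberg method. A gene was called at an adjusted p under 0.05. Total counts ran from 23326248 to 35803197 per library. Ago1, the check of the genotype labels, had 0, 0 and 2 reads in knockout and 100, 96 and 67 reads in wild type at day 14. At day 7 it had 0 reads in all 4 knockout libraries and 132, 141, 136 and 128 reads in wild type. Ago3 and Ago4, chosen for mention after their values were seen, kept reads in the knockout libraries: at day 7 Ago3 stood at 1.98 ± 0.206 CPM in knockout cells against 3.64 ± 0.789 CPM in wild-type cells, and Ago4 at 3.17 ± 0.323 CPM in knockout cells against 0.617 ± 0.252 CPM in wild-type cells (n = 4 each). The sources used here do not name the exons removed from these genes. The summed level of 6 T cell markers ran from 3480 to 8800 CPM, and Gata3, the Th2 transcription factor, averaged 439 to 544 CPM by group. At day 14 the 7 Th2 markers summed to 2110 to 4840 CPM in knockout cells and 6150 to 8160 CPM in wild-type cells. At day 7 the sums were 1820 to 2910 CPM in knockout cells and 2860 to 3370 CPM in wild-type cells. Of 6 tested Th2 markers, 1 was called lower in knockout at day 14, against 0.578% of all tested genes. The part of this sum in the receptor results was not tested. Il13, a Th2 cytokine gene, had 0 reads in all libraries of day 7.

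Some libraries stood apart from their group. The summed level of 8 cell division genes was 552, 847 and 1280 CPM in knockout cells and 86.6, 93.6 and 461 CPM in wild-type cells at day 14. At day 7 it was 71.2, 73.7, 69.6 and 141 CPM in knockout cells and 64.1 to 74.9 CPM in wild-type cells. Knockout day 7 library 4 and wild-type day 14 library 3 were thus the highest of their groups. The genotypes also differed at day 14, where every knockout sum lay above every wild-type sum. Of the 8 division genes 2 were called higher in knockout at day 14, against 0.845% of all tested genes. Over time 7 of the 8 rose in knockout and 3 in wild type, against 10.5% and 13.2% of all tested genes. The part of these genes in the genotype results of the receptors was not tested. Sequencing runs were inferred from the lane and sequencing identifiers in the deposited names, and no label states them. All knockout day 7 libraries fell in one inferred run and all knockout day 14 libraries in another. Wild-type libraries of both days fell in both. Below, run means this inferred block.

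The promoters of 4 members are shown because they include the receptors that moved most and one that fell. Promoter windows of 250 bases before a RefSeq start (GRCm38.p6) were at hand for 9 of the 10 genes, in 11 windows. They were searched on both strands for the AP-1 site TGANTCA, the GATA site AGATAA and the NF-kB consensus, all motifs of factors active in stimulated T cells. Tnfrsf9 and Tnfrsf25 each have 2 windows, of which only the second, the one with matches, is shown. The first window of each held 0 matches. Tnfrsf8, Tnfrsf9 and Tnfrsf25, all shown, were the only members with a match. The window of Cd27, which also fell over time, held 0 matches and is not shown. Capitals mark the matches, and in Tnfrsf8 and Tnfrsf9 the capital run that starts with GGGGA holds 2 overlapping NF-kB matches.
Tnfrsf8, chr4:145315165-145315414, minus strand: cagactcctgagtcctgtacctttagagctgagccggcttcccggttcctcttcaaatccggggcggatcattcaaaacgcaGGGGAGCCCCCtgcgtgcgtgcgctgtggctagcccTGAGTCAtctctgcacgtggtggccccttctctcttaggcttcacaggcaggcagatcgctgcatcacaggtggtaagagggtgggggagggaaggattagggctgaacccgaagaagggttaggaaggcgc
Tnfrsf9, second start, chr4:150927749-150927998, plus strand: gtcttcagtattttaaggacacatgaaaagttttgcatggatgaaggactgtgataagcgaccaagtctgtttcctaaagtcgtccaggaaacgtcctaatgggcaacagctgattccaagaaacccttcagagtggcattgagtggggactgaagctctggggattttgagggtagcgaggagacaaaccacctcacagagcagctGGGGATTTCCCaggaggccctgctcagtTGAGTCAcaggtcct
Tnfrsf25, second start, chr4:152116093-152116342, plus strand: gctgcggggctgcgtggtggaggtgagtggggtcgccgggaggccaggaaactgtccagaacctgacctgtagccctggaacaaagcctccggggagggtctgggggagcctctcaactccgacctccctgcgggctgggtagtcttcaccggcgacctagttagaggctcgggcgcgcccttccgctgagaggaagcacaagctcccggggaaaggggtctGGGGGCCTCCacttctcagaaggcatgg
Tnfrsf4, chr4:156013445-156013694, plus strand: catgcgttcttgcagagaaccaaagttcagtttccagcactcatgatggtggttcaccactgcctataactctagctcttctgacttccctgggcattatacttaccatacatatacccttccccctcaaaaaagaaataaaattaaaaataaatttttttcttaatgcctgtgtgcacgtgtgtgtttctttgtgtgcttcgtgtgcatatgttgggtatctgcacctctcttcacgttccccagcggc
Tnfrsf8 and the second Tnfrsf9 window held both an AP-1 and an NF-kB match, the AP-1 match from base -132 to -126 in Tnfrsf8 and from -15 to -9 in Tnfrsf9, counted from the start. The second Tnfrsf25 window held an NF-kB match from -28 to -19. The AP-1 motif thus occurred in 2 of 11 windows and the NF-kB consensus in 3 of 11, against 6.7% and 7.3% of 32851 mouse promoter windows of the same length. The GATA motif was in 0 of the 11 windows, against 10% of all. These matches describe the letters only.

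Most of the 10 receptor genes differed between day 14 and day 7. In knockout and in wild type alike, Tnfrsf4, Tnfrsf8, Tnfrsf9, Tnfrsf18 and Tnfrsf1b rose with time, and Tnfrsf25 and Cd27 fell. Tnfrsf1a, Tnfrsf14 and Icos were not called in either genotype. The 7 calls of 10 stand against 15.5% of all tested genes called in knockout (10.5% higher and 4.92% lower) and 20.5% in wild type (13.2% higher and 7.33% lower). The median log2 fold change of the 10 genes was 0.97 in knockout and 1.03 in wild type, against 0.02 and 0 over all tested genes.

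Between genotypes few receptors were called. At day 14 Tnfrsf8 was lower in knockout and was the single call among the 10, against 1.42% of all tested genes called in either direction, 0.845% higher and 0.578% lower. At day 7 the edgeR test called 0 of the 10, against 0.0949% of all tested genes (0.0518% higher and 0.0431% lower), while 2716 of all tested genes had an unadjusted p under 0.05. Other tools called more at day 7: DESeq2 called 1 of the 10 and limma-voom 3, beside 5.02% and 43.5% of all genes. The interaction of genotype and day also gave 0 calls among the 10, against 0.0863% of all genes (0.0604% higher and 0.0259% lower) and 924 genes with an unadjusted p under 0.05, where DESeq2 called 1 of the 10 and limma-voom 0, beside 1.41% and 4.06% of all genes.

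**Figure D1:**
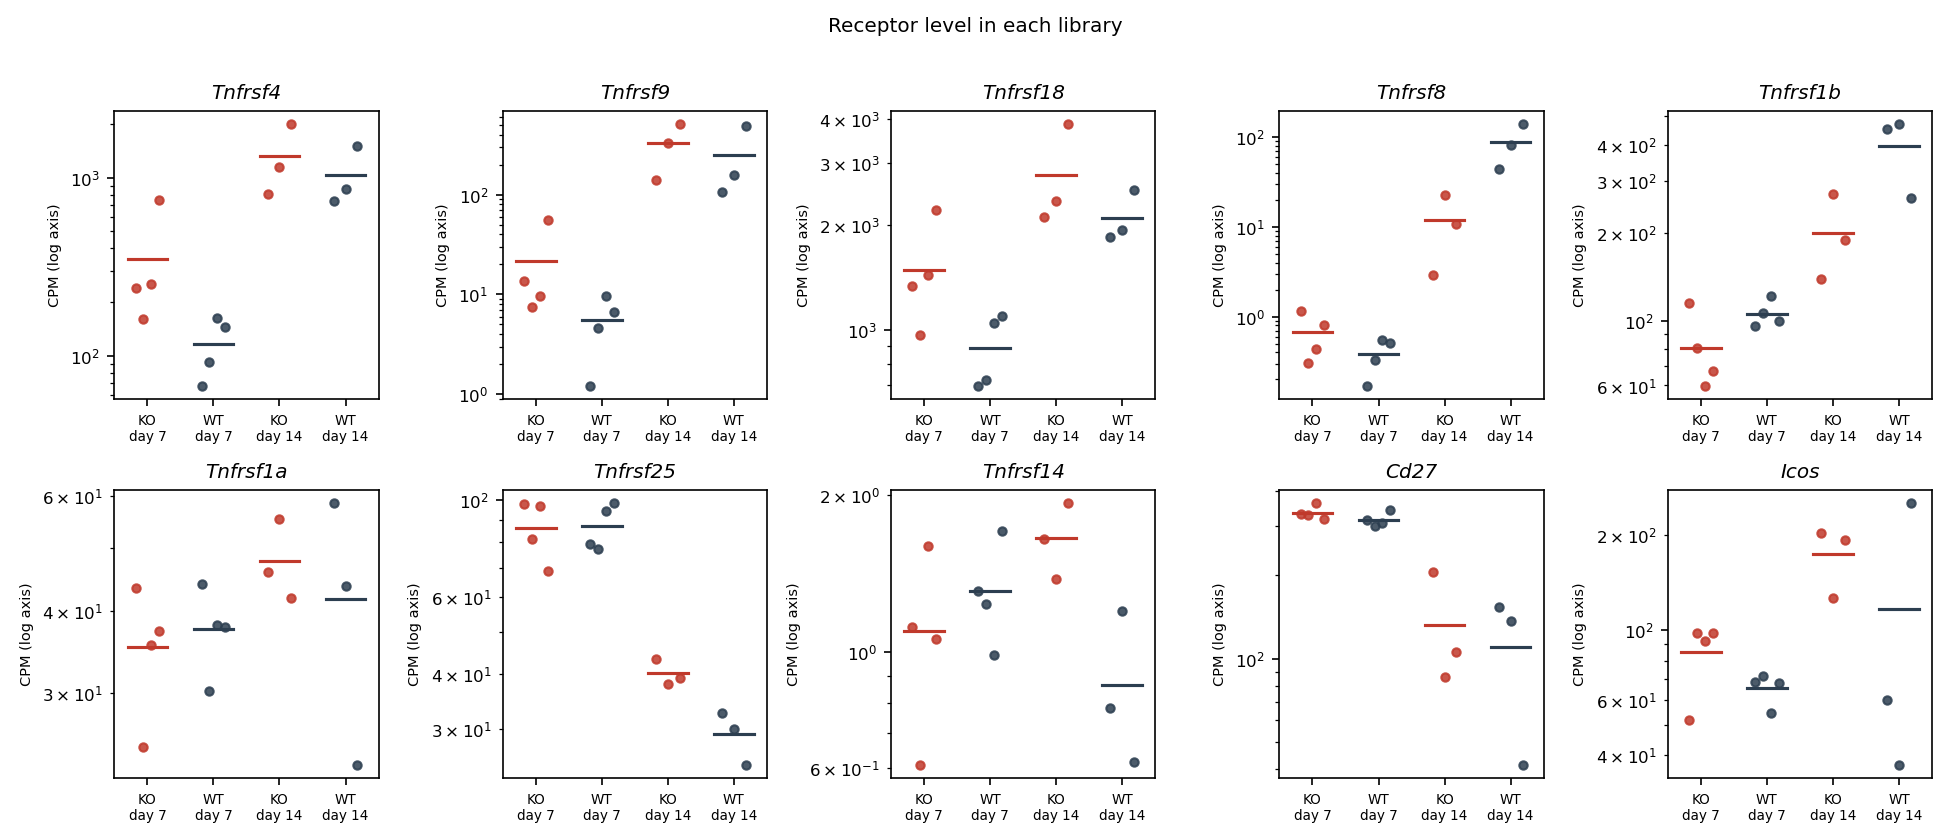
CPM of each receptor gene (log axis) in every library, by group, with points for libraries and lines for group means. Tnfrsf8 reaches 140 CPM in wild-type cells at day 14 and at most 22.5 CPM in knockout cells, while both genotypes stay between 0.167 and 1.16 CPM at day 7.

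Tnfrsf8 (ENSMUSG00000028602) encodes CD30, a receptor of activated lymphocytes whose ligand is the product of Tnfsf8. At day 14 it stood at 2.92, 22.5 and 10.9 CPM in knockout cells, against 44.6, 81.3 and 140 CPM in wild-type cells. Day 7 levels were 1.16, 0.304, 0.439 and 0.797 CPM in knockout cells, against 0.167, 0.325, 0.543 and 0.502 CPM in wild-type cells. The genotypes did not overlap at day 14 and overlapped at day 7, and day 14 lay above day 7 in every library of both genotypes. Behind these levels lay 99, 682 and 360 reads in knockout and 1199, 2433 and 4537 reads in wild type at day 14, and 6 to 27 reads per library at day 7. At day 14 Tnfrsf8 was 7.34-fold lower in knockout (log2 fold change -2.88 ± 0.66, 95% interval -4.29 to -1.46, edgeR adjusted p = 0.0452, lower in 3 of 3 libraries). The call is close to the threshold: leaving out 1 library at a time gave -3.69 to -2.38 with adjusted p from 0.0227 to 0.2, and the call remained in 2 of 14 such fits, those without wild-type day 14 library 3 (-2.38, adjusted p = 0.0227) or knockout day 14 library 2 (-3.69, adjusted p = 0.0241). Without wild-type day 14 library 3 and knockout day 7 library 4 together it was -2.38 (adjusted p = 0.0246). With the sequencing run as a term it was -2.77 (adjusted p = 0.0884), and among libraries of the second run -3.02 (adjusted p = 0.424). Over time Tnfrsf8 rose 18.1-fold in knockout (4.18 ± 0.65, edgeR adjusted p = 0.000752) and 232-fold in wild type (7.86 ± 0.75, edgeR adjusted p = 1.42e-05). The knockout value was 3.37 without knockout day 14 library 2 (adjusted p = 0.00383). The test of the difference between these rises, the interaction, gave -3.68 ± 0.92 with an edgeR adjusted p of 0.189 and a DESeq2 adjusted p of 0.00621.

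Tnfrsf4 (ENSMUSG00000029075) encodes OX40, which prolongs the survival of activated CD4 T cells and is known for its part in Th2 responses. Day 14 levels were 809, 1150 and 1990 CPM in knockout cells, against 742, 857 and 1500 CPM in wild-type cells. In day 7 libraries it stood at 240, 160, 251 and 748 CPM in knockout cells, against 67.2, 91.8, 163 and 145 CPM in wild-type cells. Every day 14 library lay above every day 7 library of its genotype, while the genotypes overlapped at both days. Tnfrsf4 rose 3.76-fold in knockout (1.91 ± 0.49, edgeR adjusted p = 0.0168) and 8.86-fold in wild type (3.15 ± 0.51, edgeR adjusted p = 0.00063). The knockout call ended without knockout day 7 library 1 (1.77, adjusted p = 0.0514), day 7 library 3 (1.78, adjusted p = 0.0562) or day 14 library 3 (1.49, adjusted p = 0.103). Without knockout day 7 library 4 the knockout value was 2.57 (adjusted p = 0.00153). Between genotypes at day 7 the difference was 1.58 ± 0.47 (edgeR adjusted p = 0.154), and 0.92 without knockout day 7 library 4. DESeq2 gave 1.61 at day 7 with an adjusted p of 0.0321. At day 14 the genotype difference was 0.35 ± 0.52 (edgeR adjusted p = 0.735).

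Tnfrsf9 (ENSMUSG00000028965) encodes the CD137 receptor, an inducible costimulator of T cells and natural killer cells. In day 14 libraries it stood at 141, 333 and 507 CPM in knockout cells, against 107, 158 and 484 CPM in wild-type cells. Earlier, at day 7, it stood at 13.6, 7.5, 9.62 and 55.4 CPM in knockout cells, against 1.2, 4.62, 9.64 and 6.73 CPM in wild-type cells. The days did not overlap within a genotype. Tnfrsf9 rose 15.2-fold in knockout (3.93 ± 0.81, edgeR adjusted p = 0.0046) and 45.2-fold in wild type (5.50 ± 0.87, edgeR adjusted p = 0.000554), and both calls remained in each fit that left out 1 library. The knockout value was 4.97 without knockout day 7 library 4 (adjusted p = 0.00146), and the wild-type value 4.59 without wild-type day 14 library 3 (adjusted p = 0.00157). The genotype difference was 1.96 ± 0.74 at day 7 (edgeR adjusted p = 0.16), and 0.91 without knockout day 7 library 4. At day 14 it was 0.39 ± 0.81 (edgeR adjusted p = 0.817). On the opposite strand Tnfrsf9 overlaps Camta1 by 28781 bases in the annotation. Camta1 averaged 1.67 CPM and was called in none of the 5 comparisons, and the strand setting of the counting is not given, so reads of the pair cannot be told apart.

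Tnfrsf18 (ENSMUSG00000041954) encodes GITR, a costimulator present on activated and regulatory T cells. At day 14 it stood at 2110, 2340 and 3870 CPM in knockout cells, against 1850, 1930 and 2510 CPM in wild-type cells. Levels at day 7 were 1340, 969, 1440 and 2210 CPM in knockout cells, against 692, 723, 1050 and 1100 CPM in wild-type cells. In wild type the days did not overlap, and in knockout the highest day 7 library lay above the lowest of day 14. Tnfrsf18 rose 1.86-fold in knockout (0.90 ± 0.28, edgeR adjusted p = 0.0468) and 2.36-fold in wild type (1.24 ± 0.29, edgeR adjusted p = 0.00679). The knockout call ended in 10 of 14 fits that left out 1 library, where the value ran from 0.58 to 1.12 over all 14 and the adjusted p from 0.0128 to 0.281, and it remained without knockout day 7 library 4, knockout day 14 library 1 or wild-type day 14 libraries 2 or 3. Its genotype difference was 0.74 ± 0.27 at day 7 (edgeR adjusted p = 0.155) and 0.40 ± 0.31 at day 14 (edgeR adjusted p = 0.457). An annotated antisense gene, Gm16008, covers 2732 bases of Tnfrsf18.

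The division gene sums given above moved with these 3 genes in some groups. Tnfrsf4, Tnfrsf9 and Tnfrsf18 were highest in the library with the highest division sum of its group in knockout at day 7, knockout at day 14 and wild type at day 14. In wild type at day 7 this did not hold: the division sum was highest in library 2 (74.9 CPM), while Tnfrsf4 and Tnfrsf9 were highest in library 3 (163 and 9.64 CPM) and Tnfrsf18 in library 4 (1100 CPM), which had the lowest sum (64.1 CPM). The part of division genes in these results was not tested. Over time in wild type without knockout day 7 library 4 and wild-type day 14 library 3, the count of called receptors was 7 of 10, with 32.4% of all genes called. In these bulk samples, more cells carrying a receptor and more of its RNA per cell cannot be told apart.

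Tnfrsf1b (ENSMUSG00000028599) and Tnfrsf1a (ENSMUSG00000030341) encode the receptors of TNF itself, of which the product of Tnfrsf1a carries a death domain and that of Tnfrsf1b recruits TRAF2. Tnfrsf1b stood at 139, 271 and 189 CPM in knockout cells and 452, 470 and 262 CPM in wild-type cells at day 14. The day 7 values were 115, 80.5, 59.6 and 67.5 CPM in knockout cells and 95.5, 106, 121 and 99.7 CPM in wild-type cells. At day 14 the genotypes overlapped through knockout library 2 and wild-type library 3, and the days did not overlap in either genotype. Tnfrsf1b rose 2.48-fold in knockout (1.31 ± 0.27, edgeR adjusted p = 0.0048) and 3.74-fold in wild type (1.90 ± 0.28, edgeR adjusted p = 0.000294). Its genotype difference at day 14 missed the threshold (-0.98 ± 0.30, 95% interval -1.62 to -0.35, edgeR adjusted p = 0.095). It was called without wild-type day 14 library 3 (-1.21, adjusted p = 0.0129), without knockout day 14 library 2 (-1.27, adjusted p = 0.0417), and by DESeq2 (-0.99, adjusted p = 0.0307). In 12 of 14 edgeR fits that left out 1 library it stayed uncalled, with adjusted p up to 0.315. It also stayed uncalled in 8 of 12 other alternatives. At day 7 it was -0.39 ± 0.25 (edgeR adjusted p = 0.363).

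Tnfrsf1a was called in none of the 5 comparisons. At day 14 its libraries stood at 45.9, 55.3 and 42 CPM in knockout cells, against 58.5, 43.7 and 23.3 CPM in wild-type cells, with means of 47.8 ± 6.82 CPM in knockout cells and 41.8 ± 17.6 CPM in wild-type cells (n = 3 each). Day 7 levels were 35.3 ± 7.81 CPM in knockout cells and 37.5 ± 5.65 CPM in wild-type cells (n = 4 each). Libraries of the groups overlapped in every comparison. Its log2 fold changes lay between -0.09 and 0.43, with edgeR adjusted p from 0.368 to 0.99.

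Tnfrsf25 (ENSMUSG00000024793) encodes death receptor DR3, whose ligand is the product of Tnfsf15. Day 14 levels were 43.4, 37.9 and 39.2 CPM in knockout cells, against 32.7, 30 and 24.8 CPM in wild-type cells. In day 7 libraries it stood at 97.6, 81.1, 96.7 and 68.7 CPM in knockout cells, against 79.3, 77, 94.3 and 98.1 CPM in wild-type cells. Day 14 lay below day 7 in every library of both genotypes. Tnfrsf25 fell 2.14-fold in knockout (-1.10 ± 0.19, edgeR adjusted p = 0.00142) and 2.99-fold in wild type (-1.58 ± 0.20, edgeR adjusted p = 7.96e-05), and both calls remained in each fit that left out 1 library. At day 14 all knockout libraries lay above all wild-type ones, but the difference of 0.46 ± 0.20 missed the threshold (edgeR adjusted p = 0.203). At day 7 the difference was -0.02 ± 0.17 (edgeR adjusted p = 0.959).

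Cd27 (ENSMUSG00000030336) encodes a receptor of naive and memory T cells whose ligand is CD70. In day 14 libraries it stood at 206, 85.7 and 106 CPM in knockout cells, against 153, 137 and 41.4 CPM in wild-type cells. Earlier, at day 7, it stood at 333, 328, 363 and 318 CPM in knockout cells, against 315, 301, 309 and 343 CPM in wild-type cells. The day 7 libraries lay within a narrow range, and the day 14 libraries lay below them and spread widely. Cd27 fell 2.53-fold in knockout (-1.34 ± 0.37, edgeR adjusted p = 0.0248) and 2.87-fold in wild type (-1.52 ± 0.38, edgeR adjusted p = 0.0103). The knockout call ended without knockout day 7 library 3 (-1.30, adjusted p = 0.0593), day 14 library 2 (-1.11, adjusted p = 0.116) or day 14 library 3 (-1.20, adjusted p = 0.114). Its genotype differences were 0.08 ± 0.33 at day 7 (edgeR adjusted p = 0.903) and 0.26 ± 0.38 at day 14 (edgeR adjusted p = 0.728). Vamp1 overlaps Cd27 by 4389 bases on the opposite strand, averaged 3.43 CPM and was called in none of the 5 comparisons.

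Tnfrsf14 (ENSMUSG00000042333) encodes HVEM, which binds both the costimulatory product of Tnfsf14 and the inhibitory receptors BTLA and CD160. It was low throughout, with 18 to 64 reads per library. At day 14 it stood at 1.65, 1.38 and 1.93 CPM in knockout cells, against 0.781, 1.2 and 0.618 CPM in wild-type cells. The genotypes did not overlap at day 14, and the difference of 0.93 ± 0.41 missed the threshold (edgeR adjusted p = 0.208). Levels at day 7 were 1.12, 0.608, 1.6 and 1.06 CPM in knockout cells, against 1.31, 1.24, 0.99 and 1.71 CPM in wild-type cells, with overlap. Its fold change over time was 0.59 in knockout (edgeR adjusted p = 0.356) and -0.59 in wild type (edgeR adjusted p = 0.316), and the interaction was 1.18 ± 0.54 (edgeR adjusted p = 0.619).

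Icos (ENSMUSG00000026009) encodes the inducible costimulator, whose ligand is the product of Icosl. Day 14 levels were 204, 126 and 193 CPM in knockout cells, against 59.8, 37.2 and 253 CPM in wild-type cells. The day 7 values were 51.8, 98.2, 92.5 and 97.8 CPM in knockout cells, against 68.5, 71.7, 54.6 and 67.7 CPM in wild-type cells. Wild-type day 14 library 3 had the highest Icos level of all 14 libraries, and the other libraries of its group lay below every knockout library of that day. The genotype difference at day 14 was 0.58 ± 0.52 (edgeR adjusted p = 0.533). Without that library it was 1.84 (adjusted p = 0.00343), and without it and knockout day 7 library 4 it was 1.85 (adjusted p = 0.00381). In knockout all day 14 libraries lay above all day 7 libraries, at a difference of 1.03 ± 0.48 that missed the threshold (edgeR adjusted p = 0.18). It was called without wild-type day 14 library 3 (1.03, adjusted p = 0.0101), and with the sequencing run as a term it was 0 (adjusted p = 1). In wild type the change over time was 0.83 ± 0.48 (edgeR adjusted p = 0.252), 1.25 without wild-type day 14 library 2 (adjusted p = 0.0495) and -0.44 without wild-type day 14 library 3.

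**Figure D2:**
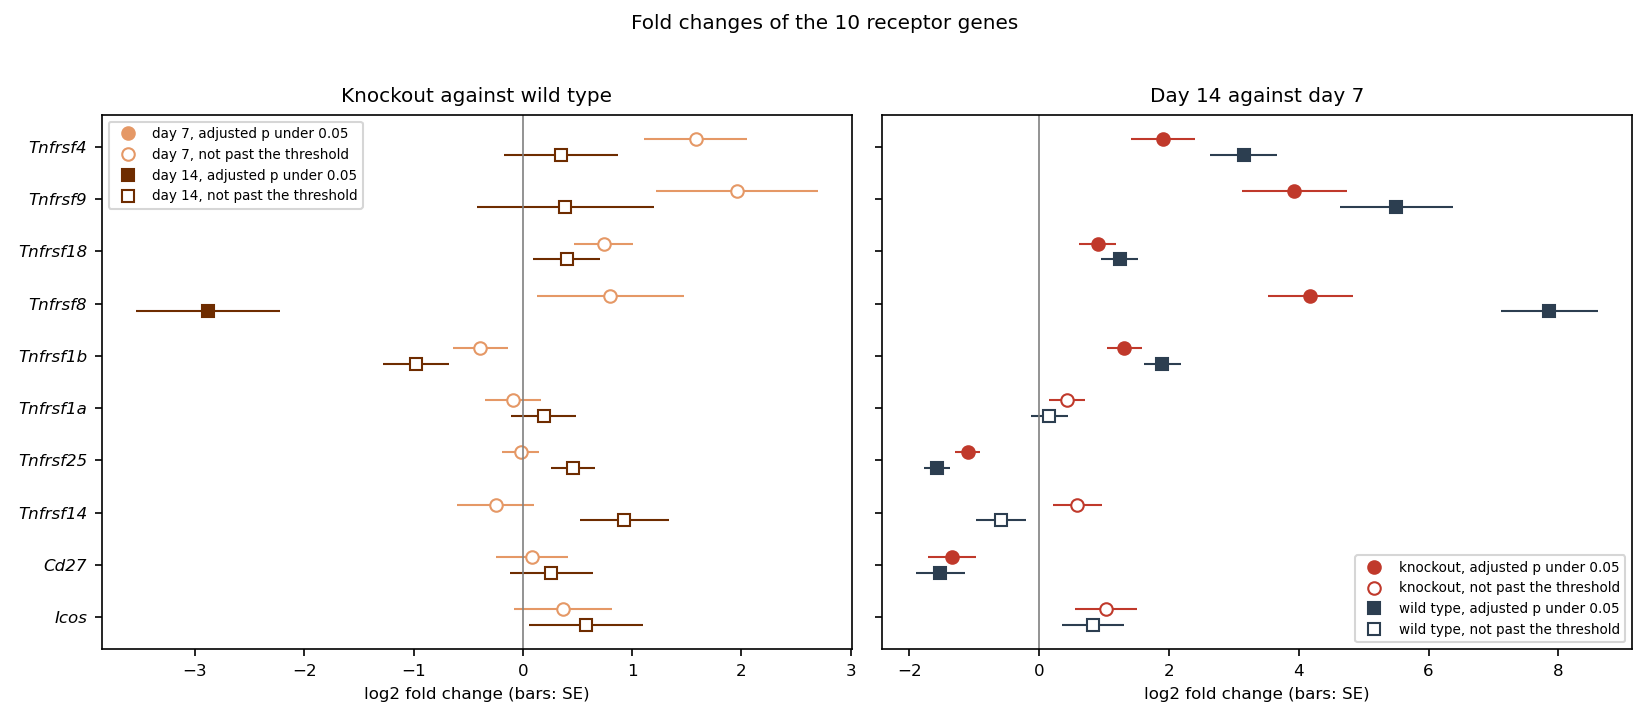
Log2 fold changes of the 10 genes with SE bars, knockout against wild type at each day on the left and day 14 against day 7 in each genotype on the right, with filled markers for an edgeR adjusted p under 0.05. Tnfrsf8 at -2.88 is the filled marker on the left, and 7 genes are filled in each genotype on the right.

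The calls over time depend on the sequencing run to different degrees. In knockout each day fell in an inferred run of its own, so day and run cannot be told apart within that genotype. With a run term, which wild type then informs, 1 of the 10 genes was called in knockout, Tnfrsf8 (4.57, edgeR adjusted p = 0.0261), against 3.19% of all genes. In wild type 7 of 10 were called with that term, against 18.5% of all genes. Among libraries of the first run alone, where 1 wild-type day 14 library is assumed to vary like the other groups, 6 of 10 were called in wild type, against 27.7% of all genes. Among those of the second run alone, with 1 wild-type day 7 library, 3 of 10 were called, against 0.792% of all genes. Tnfrsf4, Tnfrsf8 and Tnfrsf9 were the 3, at 4.12, 9.14 and 8.01.

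Compared per kilobase of the gene width that the authors give, Tnfrsf18 had the highest level of the 10 in every group, at 2930 ± 1010 CPM per kilobase in knockout and 2220 ± 381 in wild type at day 14. Day 7 levels were 1580 ± 553 CPM per kilobase in knockout and 942 ± 224 in wild type. At day 14 the order went on with Tnfrsf4 (1610 in knockout and 1260 in wild type, in CPM per kilobase) and Tnfrsf9 (424 in knockout and 324 in wild type). Tnfrsf18 and Tnfrsf4 overlapped in knockout but not in wild type. Tnfrsf9 overlapped its next lower neighbour in both genotypes, Icos in knockout and Tnfrsf1b in wild type. At day 7 Cd27 was second, at 446 CPM per kilobase in knockout, where it overlapped Tnfrsf4, and 421 in wild type, where it did not. The lowest was Tnfrsf14 at day 14, at 1.99 CPM per kilobase in knockout, where it overlapped Tnfrsf8, and 1.04 in wild type, where it lay below Tnfrsf25 without overlap. At day 7 it was Tnfrsf8, at 0.451 CPM per kilobase in knockout, overlapping Tnfrsf14, and 0.257 in wild type, below it without overlap.

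Across the 14 libraries the receptors fell into sets that varied alike. As a description, Pearson's r of log2(CPM + 0.5) was 0.99 between Tnfrsf4 and Tnfrsf9, 0.98 between Tnfrsf4 and Tnfrsf18, and 0.94 between Tnfrsf9 and Tnfrsf18. Taken as deviations from group means the same 3 pairs gave 0.95, 0.96 and 0.86, so these 3 genes also varied alike inside the groups. Tnfrsf8 went with Tnfrsf1b (0.91) and against Tnfrsf25 (-0.94) and Cd27 (-0.90), and Tnfrsf25 and Cd27 went together (0.90). Inside the groups these pairs gave 0.37 for Tnfrsf8 with Tnfrsf1b, -0.29 with Tnfrsf25 and -0.77 with Cd27, and 0.58 for Tnfrsf25 with Cd27. Inside the groups Icos ran against Tnfrsf1b (-0.81) and Tnfrsf1a (-0.77). Wild-type day 14 library 3 had the highest Icos and the lowest Tnfrsf1b and Tnfrsf1a of its group. Knockout day 7 library 1 had the lowest Icos and the highest Tnfrsf1b and Tnfrsf1a of its group. These r were not computed without those libraries. The libraries share the day and genotype groups and the runs, so these values carry no test.

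**Figure D3:**
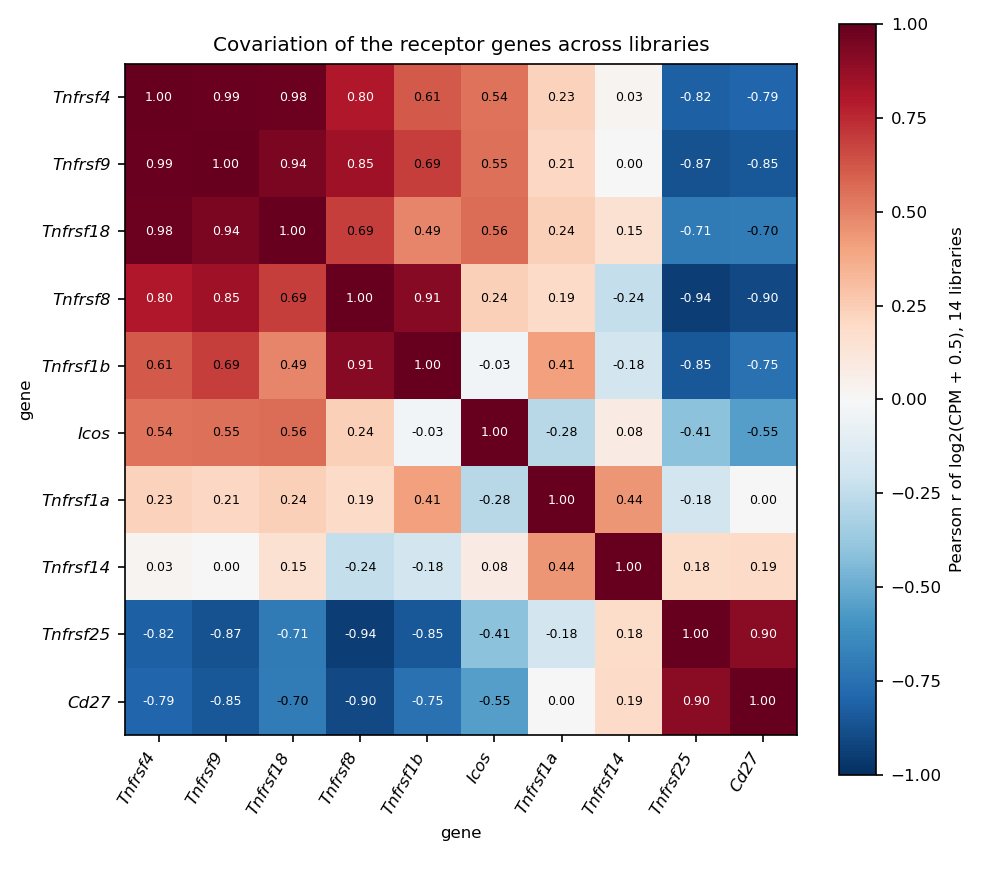
Pearson r of log2(CPM + 0.5) between the 10 genes over the 14 libraries, as a colour map from -1 to 1. Tnfrsf4, Tnfrsf9 and Tnfrsf18 form a block at 0.94 to 0.99, and Tnfrsf25 and Cd27 are negative against Tnfrsf8.

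Among all tested genes with a mean of at least 5 CPM, those most like each called member over the 14 libraries were sought by the same r. For Tnfrsf8 they were Il12rb1, Foxq1 and Ctsh, all at 0.98. Tnfrsf4 had Fdft1, Got1 and Tnfrsf9 at 0.99, and Tnfrsf9 had Psrc1, Mvd and Ltb4r1 at 0.99. Fdft1 and Mvd encode enzymes of sterol synthesis, and Got1 an aspartate aminotransferase. Tnfrsf18 had Lgals1, Got1 and Tnfrsf4 at 0.98, of which Lgals1 encodes galectin-1. Tnfrsf1b had Jak3, a kinase of cytokine receptors, and Plekho2 at 0.99 and Wfs1 at 0.98. Tnfrsf25 had Rab3ip, Gpr183 and Ctsd at 0.98, and Cd27 had Cyp2s1 at 0.98 and Klf13 and Zscan10 at 0.97.

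Of the 10 genes, 7 lie on chromosome 4, the chromosome of the targeted genes, between 145213463 and 156028895 (GRCm38). Tnfrsf1b (145213463 to 145246870, minus strand) and Tnfrsf8 (145267137 to 145315164, minus strand) are separated by 20266 bases. Tnfrsf4 (156013843 to 156016612, plus strand) and Tnfrsf18 (156026164 to 156028895, plus strand) are separated by 9551. Between these pairs lie Tnfrsf9 (150914562 to 150946102), Tnfrsf25 (152115934 to 152120119) and Tnfrsf14 (154921933 to 154928563). Cd27 (125232622 to 125237010) and Tnfrsf1a (125349362 to 125362484) lie 112351 bases apart on chromosome 6, and Icos on chromosome 1 (60977927 to 61000320). The chromosome 4 members lie 18.7 to 29.5 Mb from the Argonaute genes, which span 126331704 to 126533472. In the 10.8 Mb span of these members 109 genes were tested, and between genotypes 0 were called at day 7 and 1, Tnfrsf8, at day 14 (0.917%, against 2.64% of the 721 tested genes of chromosome 4). Over time 18.3% of the genes in the span were called in knockout and 24.8% in wild type, the called members among them. The shares were 16% and 19.7% for chromosome 4, and 15.5% and 20.5% for all tested genes.

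**Figure D4:**
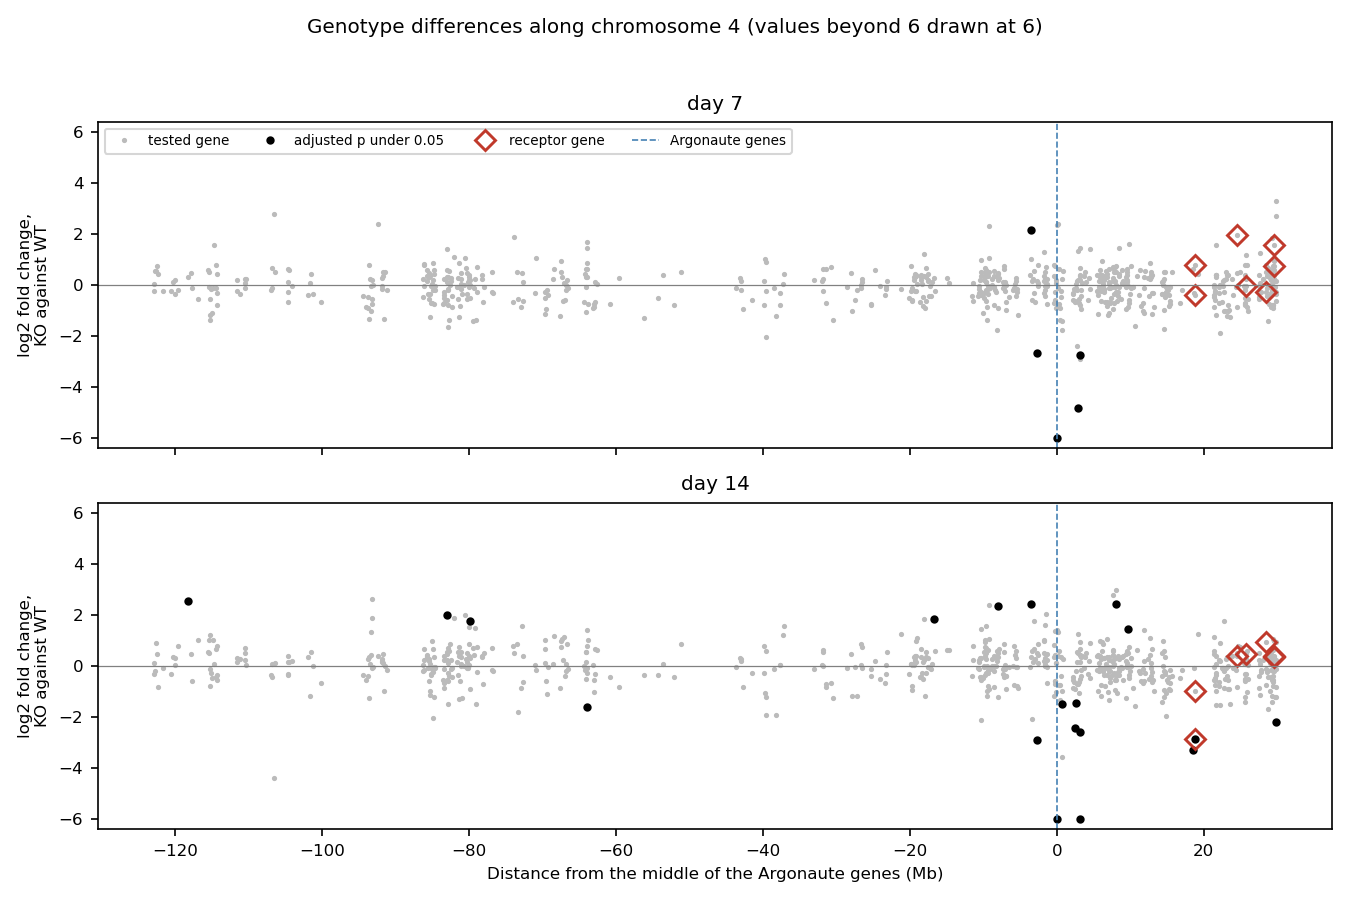
Log2 fold change of knockout against wild type for tested genes of chromosome 4 at day 7 (top) and day 14 (bottom), by distance in Mb from the middle of the Argonaute genes, with values beyond 6 drawn at 6. Diamonds mark the 7 receptor genes, all on one side at 18.8 to 29.6 Mb, and Tnfrsf8 is the diamond at -2.88 at day 14.

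The ligands of these receptors, with lymphotoxin beta, were measured in the same libraries. The list of 13 genes also holds Btla and Cd160, the inhibitory receptors that HVEM binds. Of these 13 genes 9 were tested. Between genotypes 0 of the 9 were called at either day, and 0 in the interaction, with medians of 0.41 at day 14 and 0.20 at day 7 against 0.01 and -0.01 over all genes. Over time 5 of 9 rose in knockout and 5 of 9 in wild type, and 0 fell, with medians of 1.54 and 1.33. Of all tested genes 10.5% rose in knockout and 13.2% in wild type. Genotype counts of 0, here and in the lists below, stand against 1.42% of all genes at day 14 and 0.0949% at day 7. Tnfsf9, the ligand gene of Tnfrsf9, rose in knockout (1.79 ± 0.30, edgeR adjusted p = 0.00103) and in wild type (2.41 ± 0.30, edgeR adjusted p = 8.47e-05). Tnfsf14, that of Tnfrsf14, rose too (2.39 ± 0.31 in knockout, edgeR adjusted p = 0.000184, and 2.76 ± 0.31 in wild type, edgeR adjusted p = 3.89e-05). It stood at 10.5, 8.93 and 12.5 CPM in knockout cells and 13.3, 13.1 and 9.71 CPM in wild-type cells at day 14.

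Tnf and Lta, whose products bind both TNF receptors, rose in each genotype. Tnf stood at 3.04, 15.6 and 22.3 CPM in knockout cells and 1.6, 3.24 and 8.59 CPM in wild-type cells at day 14. At day 7 it was at or below 2.79 CPM in every library. The rise of Tnf was 3.16 ± 0.68 in knockout (edgeR adjusted p = 0.00568) and 2.73 ± 0.69 in wild type (edgeR adjusted p = 0.0116). Lta rose by 2.09 ± 0.43 in knockout (edgeR adjusted p = 0.00471) and 1.33 ± 0.43 in wild type (edgeR adjusted p = 0.0416). Tnfsf8, the ligand gene of Tnfrsf8, was called in knockout, at 24.3, 17.9 and 17.1 CPM at day 14 against 4.69, 6.79, 7.27 and 8.46 CPM at day 7 (1.54 ± 0.44, edgeR adjusted p = 0.0294). In wild type Tnfsf8 was not called, and its day 14 libraries stood at 8.07, 5.24 and 25.3 CPM.

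Icosl, the ligand gene of Icos, was called in wild type, at 30.5, 34.8 and 15.5 CPM at day 14 against 9.11, 10.4, 15.3 and 13 CPM at day 7 (1.17 ± 0.32, edgeR adjusted p = 0.0167). In knockout Icosl was not called. The interaction of genotype and day was 0.57 ± 0.63 for Tnfsf8 (edgeR adjusted p = 0.956) and -0.92 ± 0.45 for Icosl (edgeR adjusted p = 0.651). Ltb, for lymphotoxin beta, which joins lymphotoxin alpha in a membrane complex, had the highest CPM of the list, at 1990 ± 217 CPM in knockout cells and 2240 ± 891 CPM in wild-type cells at day 14 (n = 3 each), and was not called. Tnfsf4, the ligand gene of Tnfrsf4, was low, at 2.30 ± 0.201 CPM in knockout cells and 1.72 ± 0.977 CPM in wild-type cells at day 14, and was not called. Of the ligand genes of Tnfrsf18, Tnfrsf25 and Cd27, Tnfsf18 had 0 reads in all libraries, Tnfsf15 had 1 read in all, and Cd70 had 6 reads in knockout and 1 in wild type at day 14.

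**Figure D5:**
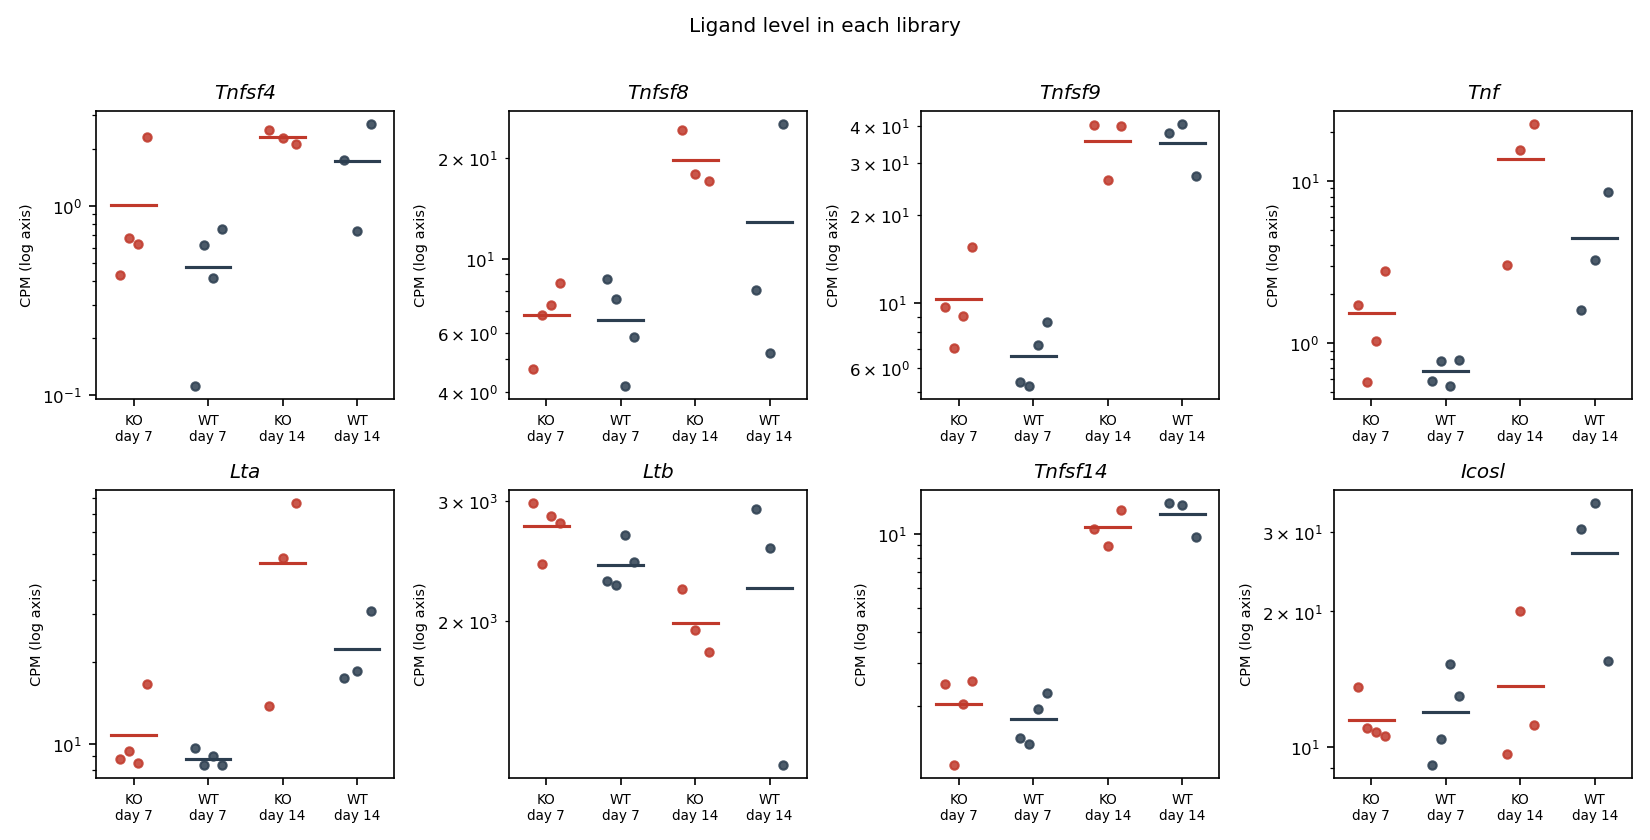
CPM of 8 ligand genes (log axis) in every library, by group, with points for libraries and lines for group means. Tnfsf9 and Tnfsf14 lie higher at day 14 than at day 7 in both genotypes, and Ltb stays between 1230 and 2980 CPM.

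Among 19 other receptors of the family, 13 were tested. None of the 13 was called between genotypes at either day by the edgeR test, nor in the interaction. Over time 5 rose and 1 fell in knockout, and 4 rose and 1 fell in wild type, against 15.5% and 20.5% of all tested genes called. Tnfrsf26 fell in knockout, at 39.3 ± 9.98 CPM at day 14 against 81.2 ± 10.2 CPM at day 7 (-1.05 ± 0.22, edgeR adjusted p = 0.00442). In wild type it fell by 0.95 on the log2 scale (edgeR adjusted p = 0.00601). Tnfrsf11a, which encodes RANK, stood at 3.19 ± 1.18 CPM in knockout cells and 2.25 ± 1.73 CPM in wild-type cells at day 14, and under 1 CPM at day 7 (edgeR adjusted p = 0.000994 in knockout and 0.0199 in wild type). Tnfrsf10b, for a receptor of the ligand TRAIL, rose by 1.27 ± 0.32 in knockout (edgeR adjusted p = 0.0138) and 1.31 ± 0.32 in wild type (edgeR adjusted p = 0.00966). Tnfrsf11b, for the decoy of the RANK ligand, averaged 1.82 CPM in knockout cells and 2.23 CPM in wild-type cells at day 14 and 0 reads in knockout at day 7, and Eda2r averaged 0.323 and 0.409 CPM at day 14. Both were called higher in each genotype, and Tnfrsf21 in knockout (2.31 ± 0.69, edgeR adjusted p = 0.0353).

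Of 21 adaptors and kinases that act below the receptors, 0 were called between genotypes. The calls over time were 0 higher and 1 lower in knockout, and 1 higher and 1 lower in wild type. Of all tested genes 15.5% were called in knockout and 20.5% in wild type. Over time Traf5, an adaptor of several of these receptors, fell in knockout (-0.92 ± 0.25, edgeR adjusted p = 0.0221) and in wild type (-1.40 ± 0.26, edgeR adjusted p = 0.00141). Traf1, an NF-kB target gene that binds TRAF2, rose in wild type (0.66 ± 0.21, edgeR adjusted p = 0.0398). The list's median was -0.24 in knockout and -0.08 in wild type, against 0.02 and 0 over all genes.

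Of 19 genes for NF-kB subunits, inhibitors, kinases and targets, 0 were called between genotypes. Over time 3 rose and 2 fell in knockout, and 3 rose and 1 fell in wild type. Of all tested genes 15.5% were called in knockout and 20.5% in wild type. Bcl3, an atypical inhibitor that acts with nuclear NF-kB, rose by 1.87 ± 0.32 in knockout (edgeR adjusted p = 0.00122) and 2.97 ± 0.33 in wild type (edgeR adjusted p = 3.74e-05). Bcl2l1, a survival gene, rose by 0.99 ± 0.19 in knockout (edgeR adjusted p = 0.00311) and 1.01 ± 0.19 in wild type (edgeR adjusted p = 0.00201). Ikbkb, for a kinase that marks NF-kB inhibitors for breakdown, fell by 1.02 in knockout (edgeR adjusted p = 0.0187) and by 1.58 in wild type (edgeR adjusted p = 0.00107). Nfkb1 rose in knockout (1.52 ± 0.31, edgeR adjusted p = 0.00386), and Bcl2a1d, at under 1 CPM in every group, rose in wild type (3.70 ± 0.87, edgeR adjusted p = 0.00773).

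In the list of 15 genes of the ICOS and CD28 pathway, 0 were called between genotypes. The calls over time were 0 higher and 1 lower in knockout, and 2 higher and 1 lower in wild type. Of all tested genes 15.5% were called in knockout and 20.5% in wild type. Foxo1, a transcription factor held in check by phosphatidylinositol 3-kinase signalling, fell over time by 1.19 in knockout (edgeR adjusted p = 0.00111) and by 1.90 in wild type (edgeR adjusted p = 3.15e-05). Maf, a factor of Th2 cells, and Ctla4, an inhibitory receptor, rose in wild type (2.80 ± 0.51, edgeR adjusted p = 0.00145, and 1.14 ± 0.38, edgeR adjusted p = 0.0481).

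Several of these receptors are also known from regulatory T cells, so genes of that type and of other cells were read in the same libraries. Foxp3, the defining regulator of those cells, averaged 1.03 to 1.32 CPM in the groups and was not called. The 6 regulatory T cell genes summed to 226 to 900 CPM in knockout and 1160 to 1260 CPM in wild type at day 14, without overlap. At day 7 they summed to 155 to 347 CPM in knockout and 83.3 to 159 CPM in wild type. The part of that sum in the receptor results was not tested. Of the 6 genes 5 were tested, and 0 were called between genotypes. Il2ra and Il10 rose over time and Nrp1 fell in both genotypes, and Lrrc32 rose in wild type (4.52 ± 0.75, edgeR adjusted p = 0.000744). Among mast cell markers, Cpa3 stood at 52.3 ± 59.1 CPM in knockout cells and 3.76 ± 2.43 CPM in wild-type cells at day 14 (3.80 ± 0.77, edgeR adjusted p = 0.027), and the 4 markers summed to 22.5 to 130 CPM in knockout cells and 1.07 to 5.69 CPM in wild-type cells. At day 7 the sums were 47 to 82.2 CPM in knockout cells and 30.5 to 64.6 CPM in wild-type cells. Over time in wild type both tested markers fell, Kit by 5.61 on the log2 scale (edgeR adjusted p = 0.00208) and Cpa3 by 3.65 (edgeR adjusted p = 0.00315), while Tnfrsf8 and Tnfrsf1b rose. Of these 4, Mcpt4 had 0 reads in every group and Fcer1a 0 in knockout at day 14. This sum moved with genotype at day 14 as Tnfrsf8 did in the other direction, and its part in that result and in the changes over time was not tested. The myeloid sum of 6 markers, led by Adgre1, lay between 15.9 and 27.1 CPM in knockout cells and 8.59 and 30 CPM in wild-type cells at day 14, above the 1.17 to 7.35 CPM of day 7, with Itgam at 0 reads in every group. The B cell sum of 5 markers, led by Cd79b, was at most 4.21 CPM, the CD8 sum of 2 markers, mainly Cd8b1, 6.32 to 21 CPM, and the natural killer sum of 3 markers, with Klrk1, at most 0.177 CPM, with Ncr1 at 0 reads in every group.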

How the data were processed

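Titles of the samples gave the groups and the replicate numbers. The submitters' processing notes name the aligner GSNAP and the build GRCm38. The counting tool, its annotation and its strand setting are not stated there. Each deposited table gives, per the file headers, a gene's read count, RPKM and width. Tests used the counts as deposited, which are whole numbers, and CPM levels use totals scaled by TMM. The deposited RPKM values entered no test. Symbols and positions came from GENCODE vM21 (22457 of 22598 identifiers matched), promoters from RefSeq (GRCm38.p6).

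Counts were filtered with filterByExpr, scaled by TMM and fitted in edgeR 4.0.16 (R 4.3.3, limma 3.58.1) by the robust quasi-likelihood method with 1 mean per group over all 14 libraries (biological coefficient of variation 0.354). The 95% intervals and SEs come from that fit. Fits were tested on simulated data. The alternatives were other scalings, filters, DESeq2 1.42.0, limma-voom with sample weights, fits of the compared libraries alone, the replicate number as a block, the run as a term, an offset for GC content and length (spline with 5 degrees of freedom, 99.6% of tested genes with a value) and leaving out each library. Fits without 2 libraries together and within 1 run were chosen after seeing the data. The 10 genes and the lists were chosen with earlier results of these data known. The text names all 10 in every comparison, the called ligands and other receptors, the ligand with the highest level, up to 4 called genes of each further list, the most abundant marker of each other cell type, the 3 genes most like each called member, and Ago1. No 2 libraries of a group agreed within sampling noise.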

Additional observations from a re-analysis of the deposited data

Results flagged for a closer look

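Of 20 groups of 4 libraries tested for a library far from the others, 3 held one. Chance gives about 1 in 20 if values are independent and normally distributed. Tnfrsf4 and Tnfrsf9 varied alike inside the groups (r = 0.95), so 3 of 20 cannot be set against that rate. Tnfrsf4 stood at 748 CPM in knockout day 7 library 4, against 160 to 251 CPM in the other libraries of that group. Tnfrsf9 stood at 55.4 CPM in the same library, against 7.5 to 13.6 CPM in the others. Icos stood low in knockout day 7 library 1, at 51.8 CPM against 92.5 to 98.2 CPM in the others. Library 4 also had the highest sum of cell division genes of its group, 141 CPM against 69.6 to 73.7 CPM, and the part of this in the Tnfrsf4 and Tnfrsf9 values was not tested.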

How the results depend on the processing

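The counts of called receptors over time changed little with scaling, filter or tool, and those between genotypes rested on few calls. For knockout against wild type at day 14 the count was 1 of 10, and 0 to 3 when 1 library was left out, with 3 (22.5% of all genes called) without wild-type day 14 library 3 and 2 (5.14%) without knockout day 14 library 2. It was 2 with DESeq2 (8.6% of all genes), 3 with limma-voom (16.7%), 0 with the compared libraries alone (0%), 0 with the sequencing run as a term (0.682%), 0 within the second run (0%), 3 with the GC and length trend removed (4.67%) and 3 without knockout day 7 library 4 and wild-type day 14 library 3 (25.6%). At day 7 it was 0, and 0 in all 14 fits that left out a library, with 1 by DESeq2 (5.02%) and 3 by limma-voom (43.5%). The interaction count was 0, and 1 by DESeq2 (1.41%). Over time in knockout the count was 7, with 4 to 8 when a library was left out, 4 without knockout day 7 library 3 (10.5%) or day 14 library 3 (9.01%), and 1 with the run term (3.19%). In wild type it was 7, with 7 to 8 when a library was left out and 3 within the second run (0.792%). Replicate numbers 1 to 3 occur in all groups, and 4 at day 7 only. Same-numbered libraries deviated from their group means with correlations of -0.53 to 0.61, and not every library correlated best with its own number. With so few libraries per group these correlations cannot decide whether the numbers mark pairs, and the labels do not say. The main fit therefore did not pair the libraries. With the number as a replicate block the day 14 genotype count was 0, beside 2.04% of all genes (Tnfrsf8 at -2.95, adjusted p = 0.0532), and the other counts were 0 at day 7, 0 in the interaction and 7 in each genotype over time.

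Over the 10 genes, 5 comparisons and all alternatives, 1170 single values kept direction and side of the threshold, 45 lost a call, 23 gained one and 42 turned direction. None of the values that turned was called. At day 7 Tnfrsf25 was 0.01 with RLE scaling, 0 with total counts, 0.01 with DESeq2, 0.13 with limma-voom, 0.02 with the GC trend removed, 0.07 without both libraries and -0.08 to 0.09 with 1 left out. Also at day 7 Tnfrsf1a was -0.20 to 0.05 with 1 left out, Tnfrsf14 0.07 with limma-voom, and Cd27 -0.17 and Icos 0 with the GC trend removed. At day 14 Tnfrsf1a was -0.09 with limma-voom, -0.10 without both libraries and -0.10 to 0.51 with 1 left out. Cd27 was then -0.28, -0.13 and -0.21 to 0.57 in the same order, Tnfrsf4 -0.08 to 0.72 and Tnfrsf9 -0.08 to 1.30 with 1 left out. In the interaction, without both libraries, Tnfrsf9 was 0.41, Tnfrsf18 0.06 and Cd27 -0.24. With limma-voom Tnfrsf1a was -0.04 and Cd27 -0.45, and with 1 left out Tnfrsf1a ran from -0.01 to 0.60, Cd27 from -0.29 to 0.49 and Icos from -0.22 to 1.47. With the run term Icos was -0.16 in the interaction and 0 over time in knockout. Over time in wild type Tnfrsf1a was -0.22 with the GC trend removed, -0.08 within the second run and -0.17 to 0.44 with 1 left out, and Icos -0.20 with limma-voom, -0.44 without both libraries, -0.80 within the first run and -0.44 to 1.25 with 1 left out. The cause was not tested. Low reads limit Tnfrsf8 at day 7 and Tnfrsf14 throughout.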
